A study of Mus musculus with 57 samples.

Results

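The promoters described here carried H3K4me3 in gastrocnemius muscle and not in brain cortex, and the repressive mark H3K27me3 was called there in no more than 1 library of either tissue. A gene was included when the most upstream transcription start site (TSS) of its curated RefSeq transcripts on an autosome had, within 1 kb, an H3K4me3 peak in at least 8 of 10 gastrocnemius libraries and in no cortex library, and an H3K27me3 peak in at most 1 of 9 cortex and at most 1 of 10 gastrocnemius libraries. This rule gave 171 of 24963 autosomal genes on mm10 (0.685%). The libraries came from brain cortex and gastrocnemius, the large calf muscle, of PSAPP mice aged 13 months, a strain that carries mutant amyloid precursor protein and presenilin transgenes and is used as a model of Alzheimer's disease. All groups carried the transgenes, and no group of wild-type mice was analysed here. Each of H3K4me3, H3K27ac and H3K27me3 was profiled in 9 cortex and 10 gastrocnemius libraries, 57 in all, and both sexes were pooled because the labels do not give the sex of a sample.

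H3K4me3 is deposited around the start sites of genes that are transcribed or ready to be, H3K27ac marks active promoters and enhancers, and H3K27me3 is laid down by the Polycomb complex at genes that are kept silent. Many developmental genes that are off in a tissue are covered by Polycomb, whereas other genes, often with few CpG dinucleotides at the promoter, simply lack these marks where they are not used. In adult muscle, genes of the contractile apparatus, of calcium release and of oxidative metabolism are under the control of MyoD-family and MEF2 transcription factors.

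The upstream sequences of 5 muscle genes are shown as examples, 4 because they hold a motif marked in capitals and Casq1 because it holds none of them and had cortex H3K27ac in every library. They over-represent these motifs, which most of the 171 promoters lack. They are the 250 bases before the TSS, 5′ to 3′, read from the GRCm38.p6 reference, which is mm10. Capitals mark TATAAA on the gene's strand and a MEF2 motif or CATTCC on either strand, and positions count from 0 at the TSS.
Klhl41, chr2:69669870-69670119, plus strand: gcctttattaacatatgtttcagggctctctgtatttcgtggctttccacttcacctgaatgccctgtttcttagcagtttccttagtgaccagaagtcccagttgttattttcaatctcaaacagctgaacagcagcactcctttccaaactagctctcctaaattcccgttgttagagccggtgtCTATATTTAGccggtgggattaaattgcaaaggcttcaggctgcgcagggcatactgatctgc
Clcn1, chr6:42286435-42286684, plus strand: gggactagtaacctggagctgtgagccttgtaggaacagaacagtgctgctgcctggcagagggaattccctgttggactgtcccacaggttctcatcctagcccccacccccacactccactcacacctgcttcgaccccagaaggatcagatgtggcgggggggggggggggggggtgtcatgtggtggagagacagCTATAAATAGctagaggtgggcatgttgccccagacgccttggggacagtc
Ppp1r3a, chr6:14755275-14755524, minus strand: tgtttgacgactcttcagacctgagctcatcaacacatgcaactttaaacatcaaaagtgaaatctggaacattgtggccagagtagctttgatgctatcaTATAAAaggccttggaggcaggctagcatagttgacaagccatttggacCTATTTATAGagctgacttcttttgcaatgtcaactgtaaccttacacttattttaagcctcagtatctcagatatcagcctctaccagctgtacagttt
Myl1, chr1:66945057-66945306, minus strand: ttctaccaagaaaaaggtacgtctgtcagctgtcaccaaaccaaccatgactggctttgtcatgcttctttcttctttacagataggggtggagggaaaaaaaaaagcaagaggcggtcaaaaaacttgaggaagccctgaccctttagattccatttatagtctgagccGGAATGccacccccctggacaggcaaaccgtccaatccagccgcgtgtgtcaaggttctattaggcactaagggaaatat
Casq1, chr1:172219896-172220145, minus strand: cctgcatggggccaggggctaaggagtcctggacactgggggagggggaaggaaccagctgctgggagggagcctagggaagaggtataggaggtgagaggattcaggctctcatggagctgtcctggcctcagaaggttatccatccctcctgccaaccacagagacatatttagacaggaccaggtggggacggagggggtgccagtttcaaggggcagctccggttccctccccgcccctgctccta
The capitals in Klhl41 are a MEF2 motif from -63 to -54. In Clcn1 a MEF2 motif from -51 to -42 overlaps TATAAA from -50 to -45. Ppp1r3a held TATAAA from -149 to -144 and a MEF2 motif from -100 to -91. The capitals in Myl1 are CATTCC read on the other strand, from -80 to -75. TATAAA on the other strand, which was not marked, is also in Myl1 and within the MEF2 motif of Ppp1r3a. None of the marked motifs was found before the Casq1 TSS.

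Of the 171 genes, 103 were protein coding, 44 were lncRNA genes, 23 were miRNA genes and 1 was another RNA. RefSeq starts a miRNA gene at its hairpin, as at all 18 with a hairpin in the table used here, so the windows of miRNA genes surround the hairpin and need not be the promoter of the longer primary transcript. Protein-coding genes made up 60.2% of them and 80.2% of all autosomal genes. They lay at 159 loci, because 22 genes shared an H3K4me3 peak with a neighbour at 10 loci, among them Myog with Myoparr, Mir23a with Mir27a, and Mirlet7c-2 with Mirlet7b and Lncppara. Values of such neighbours come from the same peaks and are not independent. The TSS of 55 genes lay inside another annotated gene.

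The H3K4me3 peak was present in all 10 gastrocnemius libraries at 123 promoters, in 9 at 27 and in 8 at 21. Each gastrocnemius library had the peak at 156 to 170 of the 171. It covered the TSS itself in at least 8 gastrocnemius libraries at 138 promoters. At the others it lay within 1 kb but covered the TSS in fewer libraries. H3K27me3 was absent from every library of both tissues at 149 promoters, was found in 1 cortex library at 17 and in 1 gastrocnemius library at 7. Since these calls selected the genes, they describe the selection and were not tested. The counts per library are plotted by mark and tissue.

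**Figure D1:**
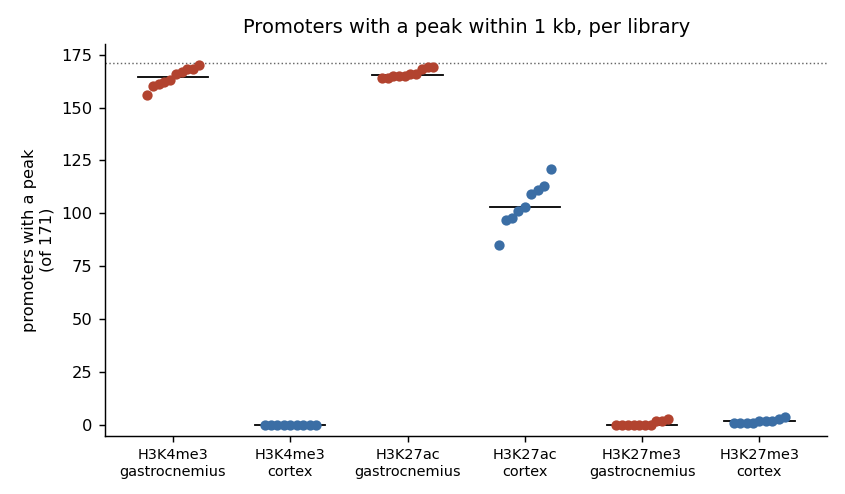
Each point is 1 library, placed by the number of the 171 promoters that had a peak within 1 kb, for each mark in gastrocnemius (red) and cortex (blue), with the group median as a bar and 171 as a dotted line. H3K27ac, which the selection did not use, was found at 164 to 169 promoters in gastrocnemius libraries and at 85 to 121 in cortex libraries.

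The selection passed through 403 genes with H3K4me3 in at least 8 gastrocnemius and no cortex libraries. Cortex H3K27me3 in at least 2 libraries removed 225 of them, and 133 of these had it in at least 8. Just inside the limit on H3K4me3, the highest of the 21 genes with 8 libraries were Fam83e, Mir6945 and Mir6990, at 17.5, 17.4 and 14.5 RPM. RPM, reads scaled to a common library size, here counts peak reads that fall in the 1 kb either side of the TSS, per M of the library's reads in autosomal peaks, and a broad peak's reads were shared evenly over its length. Just outside, 21 genes had 7 libraries, led by Mir6988 at 17.6 RPM, and 28 genes were left out for a single cortex library with H3K4me3, led by Mir24-2 at 28.3 RPM. Cox8b at 19.9 RPM was the highest of 22 genes kept with H3K27me3 in 1 library of a tissue, and Dusp27 at 25.4 RPM the highest of 21 left out with H3K27me3 in 2.

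Depth in autosomal peaks ran from 9.03 to 14.8 M reads in the gastrocnemius H3K4me3 libraries and from 9.32 to 18.6 M in the cortex ones. For H3K27ac it was 15.6 to 27 M in gastrocnemius and 3.90 to 21.0 M in cortex. For H3K27me3 it was 2.99 to 18.2 M in gastrocnemius and 3.90 to 6.35 M in cortex. How far the absence of H3K27me3 calls depends on this depth was not tested. The shallowest cortex H3K27ac library, replicate 9, also had the fewest of the 171 promoters (85). The cortex H3K27ac classes and the count of calls below use all 9 cortex libraries and are also given without it. In the cortex 2 libraries and in the gastrocnemius 4 libraries of H3K27ac had file names with a sequencer-style sample number and the others did not. No 2 libraries of a group shared more than 0.517% of peaks with equal start and reads.

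The tissue labels were read against marker lists. H3K4me3 was present in at least 8 libraries at 53 of 56 sarcomere genes in gastrocnemius and at 14 in cortex, and at 10 of 11 neuron markers in cortex and 6 in gastrocnemius. Of 10 fibroblast markers, 9 had it in at least 8 gastrocnemius and 4 in at least 8 cortex libraries, and their summed H3K4me3 was 73.4 to 106 RPM in gastrocnemius and 53.4 to 73.2 RPM in cortex. The summed H3K4me3 of 10 endothelial markers was 143 to 223 RPM in gastrocnemius and 84.3 to 115 in cortex. That of 6 smooth muscle markers was 41.3 to 61.5 and 26.5 to 35.6 RPM, so these 2 lists also separated the tissues. For 6 Schwann cell markers it was 75.2 to 110 RPM in gastrocnemius and 93.6 to 119 in cortex. For 6 epidermal markers it was 8.65 to 18.7 and 0 to 13.4 RPM, and both these lists overlapped between the tissues. Among the 171 were 3 fibroblast markers (Col3a1, Dpt and Lum), 1 smooth muscle marker (Tagln), 1 epidermal marker (Trp63) and 1 Schwann cell marker (Prx), and none from the lists for adipocytes, endothelium, tendon, blood, neurons, glia or microglia. Both are whole tissues, so fewer cells of a type and less signal per cell cannot be told apart, and the part of other cell types in the results was not tested.

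Of the 12 promoters with the highest H3K4me3, 6 were on the muscle lists described below (Klhl41, Clcn1, Casq1, Cpt1b, Lmod3 and Ppp1r3a) and 3 were at miRNA genes (Mir23a, Mir27a and Mir8113). Klhl41, a kelch-repeat protein of the sarcomere, had 29.4 RPM in its lowest, 41.9 in its median and 54.9 in its highest gastrocnemius library, with a mean of 40.8 ± 8.74 (SD, n = 10). Fitm1, which helps to form lipid droplets, followed at 32.3 ± 3.43, and Clcn1, the chloride channel of skeletal muscle, at 30.2 ± 6.27. Then came Abra, an actin-binding protein of muscle, at 29.2 ± 4.70, Mir23a at 29.0 ± 13.1, Casq1, the calcium buffer of the sarcoplasmic reticulum, at 27.7 ± 4.86, and Cpt1b, which admits fatty acids to mitochondria, at 27.1 ± 6.46. Neighbours in this order differed by less than 1 SD, except Klhl41 and Fitm1 when set against the SD of Fitm1. The median over all 171 was 7.00 RPM, the range was 0.295 to 40.8, and at the 13419 genes with H3K4me3 in every library of both tissues the gastrocnemius median was 32.6 RPM.

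**Figure D2:**
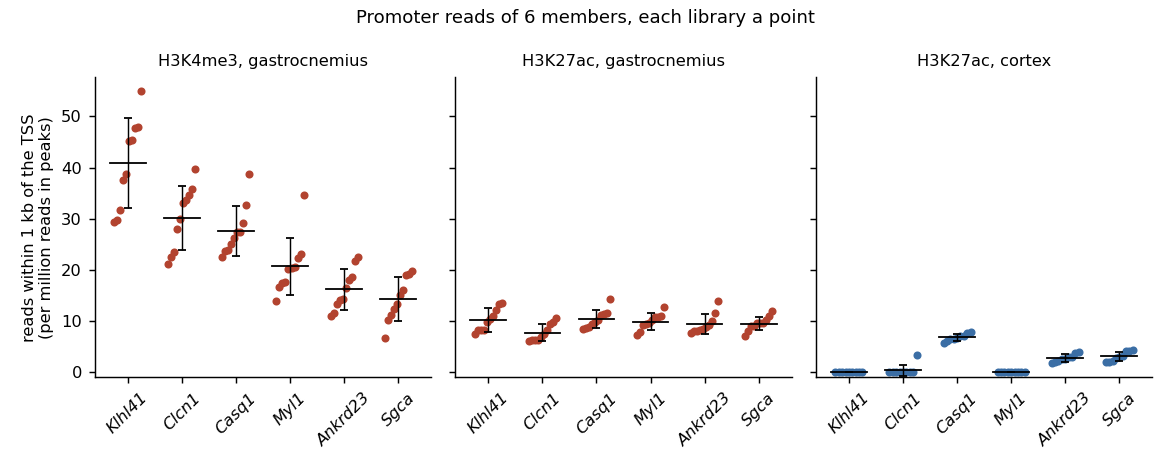
Each point is 1 library, placed by its promoter RPM, for 6 genes in 3 panels (gastrocnemius H3K4me3, gastrocnemius H3K27ac and cortex H3K27ac), with the mean as a bar and ± SD as whiskers. Cortex H3K27ac was at 0 in every library at Klhl41 and Myl1, and between 5.79 and 7.83 RPM at Casq1.

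H3K4me3 width followed another order. The peak at these promoters had a median width of 3.95 kb, and the widest means were at Sema3b (17.3 kb), Fam83e (17.1 kb) and Lsmem2 (16.8 kb). Sema3b and Lsmem2 share a peak. Across the 171 genes, mean gastrocnemius H3K4me3 and mean gastrocnemius H3K27ac had a Spearman correlation of 0.54, a description over genes that share libraries.

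Gene lists chosen with earlier results of these data known were used to group the genes by role. Of 56 sarcomere genes, 7 were selected, 20 were left out for H3K4me3 in the cortex and 26 for H3K27me3 in 2 or more libraries of a tissue. The 7 were Klhl41, Lmod3, Myl1, Xirp1, Myoz1, Myh2 and Tnni1. Myl1, a light chain of fast myosin, had 20.7 ± 5.61 RPM (n = 10), and Myh2, the heavy chain of type IIA fibres, had 5.25 ± 1.77. Neither had a cortex H3K27ac peak in any library, and the same was true of Lmod3, which nucleates thin filaments, and of Klhl41. Cortex H3K27ac was called in 8 libraries at Xirp1, 7 at Tnni1 and 5 at Myoz1, none of which the test on calls given below could call. Of 34 genes of excitation and calcium handling, 6 were selected (Clcn1, Casq1, Cavin4, Stac3, Trdn and Mrln), and 7 of 38 genes of energy metabolism were (Cpt1b, Ppp1r3a, Cox8b, Ckmt2, Fbp2, Cd36 and Ak1). Of 32 muscle regulators 3 were (Myog, Ankrd23 and Asb5), and of 25 genes of the neuromuscular junction and membrane complex 1 was (Sgca, a sarcoglycan of the dystrophin complex).

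H3K27ac was not used in the selection. In gastrocnemius it lay within 1 kb of the TSS in all 10 libraries at 161 of the 171 promoters and in no library at 2, Slfn10-ps and Mndal. The share with all 10 was 94.2% here, 57.0% of all autosomal genes, 85.7% of the 133 genes with H3K4me3 in gastrocnemius and cortex H3K27me3 in at least 8 libraries, and 93.1% of genes with H3K4me3 in every library. In the cortex, where none of these promoters had H3K4me3, H3K27ac was present in all 9 libraries at 75 promoters, in 1 to 8 at 59 and in none at 37. The cortex peak covered the TSS itself in all 9 libraries at 66. The share with cortex H3K27ac in all 9 libraries was 43.9% of these promoters, 10.5% of the 133 promoters with H3K4me3 in gastrocnemius and Polycomb marking in the cortex, and 58.8% of all autosomal genes. Without cortex replicate 9, 81 promoters had cortex H3K27ac in all 8 libraries (47.4%, against 61.6% of all genes), 53 in some and 37 in none.

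**Figure D3:**
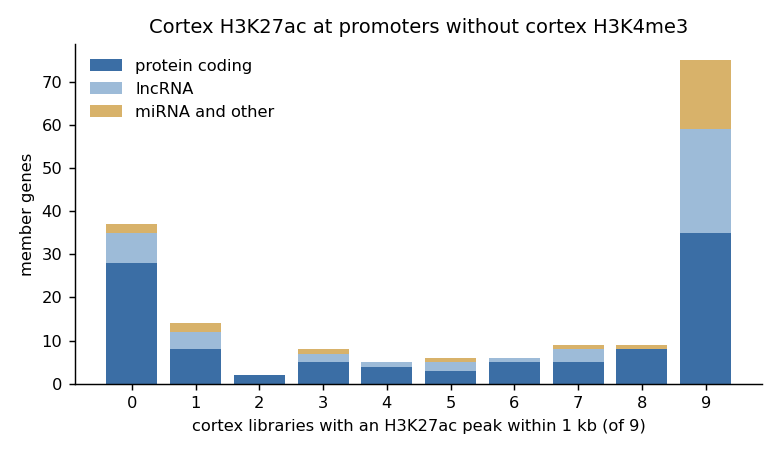
Bars count the 171 genes by the number of the 9 cortex libraries with an H3K27ac peak within 1 kb of the TSS, divided by gene type. The tallest bars stand at 9 libraries (75 genes) and at 0 libraries (37 genes).

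H3K27ac was called in more gastrocnemius than cortex libraries at 55 of 169 promoters with a call in any library, and in more cortex libraries at none of them (two-sided Fisher's exact test on the calls, Benjamini-Hochberg FDR under 0.05 over 18562 promoters). Over all promoters tested 3.72% were called with more gastrocnemius and 8.41% with more cortex libraries. At 161 of the 169 promoters all 10 gastrocnemius libraries had the peak, so a call of more cortex libraries was not possible there. The lack of such calls therefore cannot be compared with the 8.41%. At Klhl41, Lmod3, Myl1, Myh2 and Cd36, the fatty acid transporter, all 10 gastrocnemius and no cortex libraries had the peak (FDR = 0.000187 by Fisher's exact test). Clcn1 had it in 10 gastrocnemius and 1 cortex library (FDR = 0.00144 by Fisher's exact test). The test could call a promoter with 10 gastrocnemius libraries only when at most 3 cortex libraries had the peak, as at Gm20743, so promoters with 4 or more were out of its reach. By list, the test called 4 of the 7 sarcomere genes, 4 of 6 of excitation and calcium handling, 3 of 7 of energy metabolism, 1 of 3 regulators and 0 of 1 of the neuromuscular junction and membrane complex. Without cortex replicate 9 the count was 47, against 590 of 18560 over all promoters. Leaving out any single gastrocnemius library also gave 47.

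The lowest gastrocnemius library lay above the highest cortex library in H3K27ac RPM at 92 of the 171 promoters, against 4.28% of all promoters with H3K27ac, and the reverse held at 4, against 13.9%. At 75 of the 92 at least 1 cortex library had no peak and entered as 0, so there the separation comes in part or whole from the peak calls. Among the 75 promoters with a peak in all 19 libraries, where reads were compared in full, it held at 17, against 1.16% of all such promoters, and the reverse at 4, against 8.35%. This split was added after seeing the data. Trdn, which anchors calsequestrin at the calcium release channel, had 5.58 RPM in its lowest and 9.40 in its highest gastrocnemius library and 0 in every cortex library. A 0 means that no peak was called, not that no reads were there, so no fold was computed for such genes.

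Where all 19 libraries had an H3K27ac peak, the level itself could be compared. This held at 75 of the promoters and at 12951 of all genes. At the 75, H3K27ac peaks had median widths of 22.9 kb in gastrocnemius and 12.1 kb in cortex. Among all genes with a peak these were 8.36 and 5.49 kb. Reads were shared evenly over a peak's length, so the level averages the whole peak and is not local to the TSS. H3K27ac was higher in gastrocnemius at 60 of the 75 and lower at 6 (edgeR quasi-likelihood test with TMM scaling, FDR under 0.05), against 20% of all promoters called higher and 21.6% called lower. The median log2 difference, gastrocnemius over cortex, was 0.62 at the 75 and -0.02 over all. Scaling by reads in peaks alone moved the difference of all promoters by 0.27 on the log2 scale, so that 40 of the 75 were called higher and 7 lower, against 6.9% and 43.7% of all promoters, and 12 of the 75 changed sign.

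Ankrd23, a stretch-responsive ankyrin repeat protein of the sarcomere, differed the most. Its H3K27ac was 7.72 RPM in the lowest, 8.67 in the median and 13.9 in the highest gastrocnemius library, and 1.79, 2.63 and 3.95 RPM in the cortex. The groups did not overlap, and the log2 difference was 2.02 ± 0.139 (SE, edgeR FDR = 5.16e-11). Sgca followed with a log2 difference of 1.90 ± 0.128 (edgeR FDR = 3.65e-11), and Tmod4, which caps thin filaments, with 1.78 ± 0.108 (edgeR FDR = 8.54e-12). Cox8b, a subunit of cytochrome c oxidase, had a log2 difference of 1.33 and Myog, the myogenic regulator myogenin, 1.15, both called higher by edgeR. Casq1 was higher in gastrocnemius by 0.88 ± 0.0724 (edgeR FDR = 7.41e-10), with 8.54 RPM in the lowest gastrocnemius library and 7.83 in the highest cortex library. Tagln, the smooth muscle marker, had 0.51 and was called higher as well.

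The 6 promoters lower in gastrocnemius were those of Mir7032, 1700110K17Rik, Tmem219, Mir6926, Gm10432 and 4930431P22Rik. With the mouse as a block, 4930431P22Rik was no longer called (edgeR FDR = 0.074). At Mir7032, H3K27ac was 3.62 to 6.43 RPM in gastrocnemius and 9.14 to 10.9 RPM in the cortex, a log2 difference of -0.53 ± 0.118 (edgeR FDR = 0.000758). Only Tmem219 among the 6 encodes a protein, and its log2 difference was -0.39 ± 0.107 (edgeR FDR = 0.00518). By gene type, 30 of 35 protein-coding genes, 18 of 24 lncRNA genes and 12 of 16 miRNA genes were called higher in gastrocnemius, and 1, 3 and 2 lower. Over all promoters tested, 19.2% of protein-coding, 24.4% of lncRNA and 33% of miRNA genes were called higher, and 21.6%, 24.2% and 17.7% lower.

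**Figure D4:**
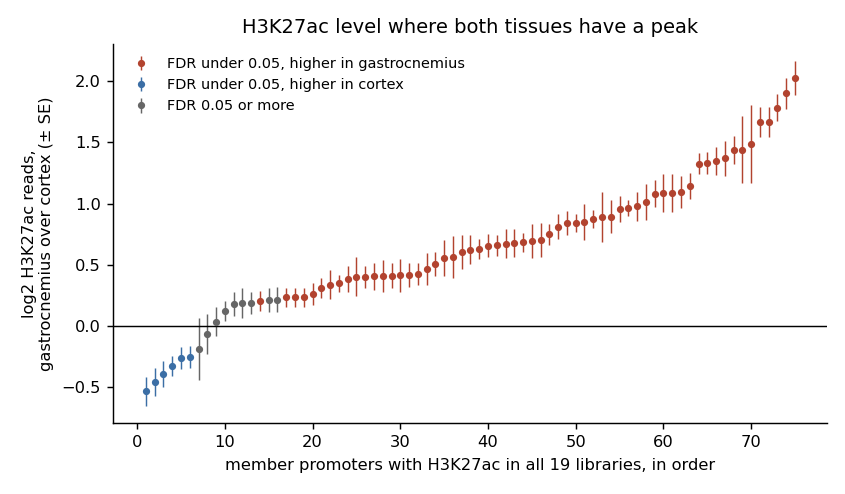
Each point is 1 of the 75 promoters with an H3K27ac peak in all 19 libraries, ordered by the log2 difference in reads, gastrocnemius over cortex, with its standard error from edgeR. Red points (60) were called higher in gastrocnemius, blue (6) higher in cortex, and grey were not called.

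Promoters grouped by cortex H3K27ac differed in other measures, given here as medians without a test. The 37 without cortex H3K27ac lay 46.4 kb from the nearest cortex H3K4me3 peak, the 59 with it in 1 to 8 libraries 16.1 kb, and the 75 with it in all 9 lay 7.76 kb away. None of the 37 and 28 of the 75 had a cortex H3K4me3 peak within 5 kb. In all 41 of the 171 had one, and some lay just past the 1 kb limit, 1.02 kb away at Fam83e, 1.07 kb at Sgca, 1.28 kb at Mir23a, 1.74 kb at Cpt1b and 1.93 kb at Fitm1. A cortex H3K27me3 peak of at least 1 library lay within 5 kb of 49 of the 171 TSSs and within 10 kb of 69. Gastrocnemius H3K4me3 was 9.56, 8.67 and 5.19 RPM in the same order, while gastrocnemius H3K27ac was 6.503, 6.42 and 7.66 RPM. H3K27ac called in at least 8 gastrocnemius and no cortex libraries, more than 1 kb and up to 50 kb from the TSS and including the outer parts of promoter peaks, lay near 84.2% of the 171 genes, of 91.7% of the 133 with Polycomb marking in the cortex and of 46.7% of all genes.

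For 18 of the 171 genes the annotation gives another TSS more than 2 kb away, and 8 of these had H3K4me3 there in at least 8 cortex libraries (44.4%, against 55.4% of all genes with such a TSS). They were Larp4, Mrps23, Dhx32, Tmem219, Ak1, Mlip, Filip1l and Lpin3. At Larp4, an RNA-binding protein, the other TSS lay 2715 bases downstream and had cortex H3K4me3 of 69.8 RPM in all 9 libraries. At Mlip, a lamin-interacting protein of muscle, the other TSS lay 96018 bases away, with H3K4me3 in all 9 cortex libraries and in 1 gastrocnemius library. At the other 7 genes all 10 gastrocnemius libraries also had H3K4me3 at the second TSS. For these 8 genes the absence of cortex H3K4me3 concerns 1 start site and not the gene.

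The promoters were poor in CpG. From 250 bases before to 50 after the TSS, the ratio of observed to expected CpG had a median of 0.223 (quartiles 0.155 and 0.332) and was at least 0.6 at 2 of the 171 (1.17%), against a median of 0.525 and 44.98% of all autosomal genes. Promoters with H3K4me3 in gastrocnemius and Polycomb marking in the cortex had a median of 0.315, and those with H3K4me3 in every library had 0.782. The mirrored rule took H3K4me3 in at least 8 cortex and no gastrocnemius libraries, with H3K27me3 in at most 1 library of either tissue. Its 86 promoters had a median of 0.335. The windows of miRNA genes, which start at the hairpin, are among the 171. Among protein-coding genes alone the medians were 0.226 for the 103 selected and 0.606 for all.

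TATAAA was found on the gene's strand in 14.6% of the 171 windows and in 8.63% of all. The MEF2 motif, which reads alike on both strands, was found in 10.5% and 2.79%. In the 133 promoters with Polycomb marking in the cortex, TATAAA was in 10.5% and the MEF2 motif in 5.26%. In the 86 of the mirrored rule they were in 6.98% and 5.81%. On either strand, a search added after seeing the data, TATAAA was found in 18.1% of the 171 and 13.1% of all. It was found in 16.5% of the 133 promoters with Polycomb marking in the cortex and 15.1% of the 86 of the mirrored rule. These motifs can overlap, as in Clcn1. CATTCC, the core that TEAD factors bind, was found in 18.1% of the 171 and 13.6% of all. It was found in 23.3% of the 133 promoters with Polycomb marking in the cortex and 17.4% of the 86 of the mirrored rule. The CArG box of serum response factor was found in 6 of the 171 (3.51%) and in 1.39% of all, with 2.26% and 1.16% in those 2 sets. The windows of Dnm3os and Mir199a-2 overlap and hold the same box, which was counted at both. The E-box letters CANNTG were found in 81.3% and 69.5%, with 79.7% and 75.6% in the same 2 sets. Of the 37 promoters without cortex H3K27ac, 29.7% held TATAAA on the gene's strand and 21.6% the MEF2 motif, and of the 75 with it in all 9 libraries 8.0% and 4.0% did. For TATAAA on either strand the shares were 37.8% and 10.7%. Between the same classes CATTCC went from 16.2% to 20%, CANNTG from 81.1% to 78.7% and the CArG box from 2.70% to 2.67%. The median GC content of the windows was 45% and 54%. The classes also differed in gene type, with 28 coding and 1 miRNA gene among the 37 and 35 coding and 16 miRNA genes among the 75. Among coding genes alone, a split added after seeing the data, TATAAA on the gene's strand was in 32.1% of the 28 and 11.4% of the 35, and the MEF2 motif in 21.4% and 8.57%. No difference between the classes was tested, and the parts of base composition and gene type were not tested. These are matches of letters and were not tested as binding sites.

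**Figure D5:**
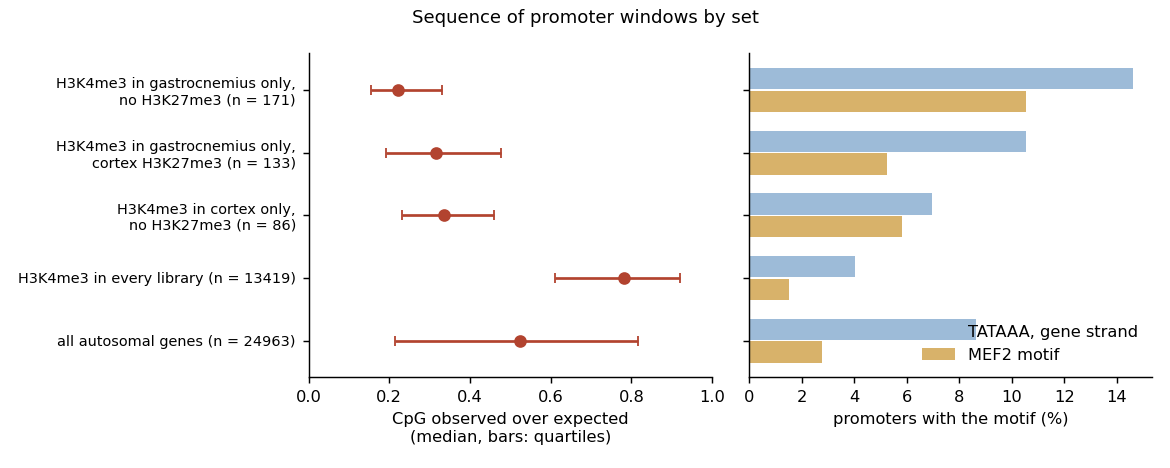
The left panel gives the median CpG observed over expected with quartiles as bars, and the right panel the percentage of promoter windows with TATAAA on the gene's strand or the MEF2 motif, for 5 sets of genes. The 171 promoters (top) have the lowest median ratio (0.223) and the highest share with the MEF2 motif (10.5%) of the 5 sets.

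Of the 23 miRNA genes, 19 had a mature sequence in the RefSeq table. The following are shown because they come from the 3 miRNA genes among the 12 highest in H3K4me3, or as examples of a seed shared between loci, with the seed (bases 2 to 8) in capitals.
miR-23a-3p: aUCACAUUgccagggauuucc
miR-27a-3p: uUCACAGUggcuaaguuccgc
miR-8113: cAGGAGAGucaggggcaaguag
let-7a-5p: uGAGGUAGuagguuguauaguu
let-7b-5p: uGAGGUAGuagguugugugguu
let-7c-5p: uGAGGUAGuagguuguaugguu
miR-7032-5p: cCCAGGGUgguccccgagaggguggu
miR-6990-5p: cCCAGGGUgagucagggcucu
The let-7 members share a seed, come from Mirlet7a-1 on chromosome 13 and from Mirlet7c-2 and Mirlet7b on chromosome 15, and repress many growth genes. Mirlet7b had 2.06 to 5.31 RPM of H3K4me3 in gastrocnemius. Its H3K27ac was 11.4 to 16.4 RPM in gastrocnemius and 13.5 to 15.5 RPM in the cortex, which overlap, and the log2 difference was 0.23 with TMM (edgeR FDR = 0.0194) and -0.03 by reads in peaks (edgeR FDR = 0.811). With the mouse as a block it was 0.22 and not called (edgeR FDR = 0.0844), as at Mirlet7c-2 and Lncppara, which share the peak. miR-7032-5p and miR-6990-5p also share a seed, from genes on chromosomes 5 and 19. Mir23a and Mir27a are read from 1 cluster on chromosome 8. Their H3K27ac was called higher in gastrocnemius by a log2 difference of 1.09 ± 0.155 (edgeR FDR = 3.77e-06), with 9.63 to 17.8 RPM against 4.31 to 11.9 RPM in the cortex, so the libraries overlapped. Mir199a-2, which lies with Dnm3os on chromosome 1, had a cortex H3K27ac peak in 1 library.

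Among the markers of other cell types, Col3a1, a fibrillar collagen, had 6.74 ± 1.52 RPM (n = 10), Dpt 4.85 ± 1.38, Lum 2.60 ± 1.10 and Prx, a protein of myelinating Schwann cells, 2.73 ± 0.642. Trp63, a regulator of epidermis, had 13.4 ± 2.95 RPM with H3K27ac in all 10 gastrocnemius and no cortex libraries, while the epidermal markers Krt5, Krt14, Krt1 and Dsg3 were without H3K4me3 in every gastrocnemius library and Krt10 had it in 1 gastrocnemius and 3 cortex libraries.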

How the data were processed

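ChIP-seq of the histone marks was done on whole cortex and gastrocnemius. Per the labels, BWA and SAMtools served alignment to mm10 and filtering, and the authors then called peaks library by library with epic2. The deposited count of a peak is its whole number of fragments, not normalized, and the deposited score is the epic2 score, used here only to rank peaks. Reads outside peaks were not used here, so an uncalled promoter has no value. Cortex and gastrocnemius were named differently in the files, and tissue and any difference in handling cannot be told apart.

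Promoters are windows of 1 kb either side of the most upstream RefSeq TSS (GRCm38.p6). Peak reads were shared by overlap and divided by reads in autosomal peaks. Fisher's exact test (SciPy 1.17.1) served for H3K27ac calls and edgeR 4.0.16 for reads (TMM, at least 10 reads in all, FDR under 0.05). Tests were run over all genes and tested on simulated data. At 12951 promoters, 91 of 100 changes of 1.5-fold and 100 of 100 of 2-fold were recovered for the level in 1 simulation, with 9 false calls, and at 18433 promoters 158 of 200 changed calls. The members, gene lists and naming rules were chosen with earlier results of these data known. Named are list members, those highest in H3K4me3, width or cortex H3K27ac, those without gastrocnemius H3K27ac, those with another TSS, those at the thresholds, and the extremes of the level test. Tmod4 and the 6 lower promoters were named after their values were seen. By the study's methods the libraries of a group come from different mice, and by the file names 9 of 10 mice gave both tissues.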

Additional observations from a re-analysis of the deposited data

Results flagged for a closer look

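In 14 of 116 sets of 10 libraries, or 9 in the cortex, 1 library stood apart from the others by Dixon's test, where chance gives about 5%. In H3K4me3 of gastrocnemius, replicate 7 was high at Lmod3 (37.6 RPM, others 22.1 to 30.0) and Fbp2 (23.8 RPM, others 8.27 to 13.4), replicate 6 at Myl1 (34.6 RPM, others 13.9 to 23.1), replicate 8 at Dpt (8.13 RPM, others 3.51 to 5.82) and replicate 3 at Ak1 (13.8 RPM, others up to 6.41). No peak was called, giving 0 RPM, in replicate 1 at Lum and Slfn10-ps and in replicate 5 at Mrps23. In H3K27ac of gastrocnemius, the high libraries were replicate 8 at Casq1 (14.3 RPM, others 8.54 to 11.6), replicate 2 at Mrln (8.04 RPM, others 3.70 to 5.60), and replicate 7 at Mlip (13.2 RPM, others 6.68 to 9.998) and Mir6945 (14.0 RPM, others 5.95 to 9.99). Replicate 6 was low at Sema3b and Lsmem2, which share the peak (8.95 RPM, others 11.4 to 13.9). Replicate 7 gave 4 of the 14, replicate 6 gave 3, and no more than 2 came from any other.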

How the results depend on the processing

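The number of selected genes was 174 and 170 with windows of 500 bp and 2 kb, of which 160 and 143 were among the 171. Without the 25% lowest scores it was 195 and with equally many top peaks per library 187, of which only 108 and 114 were among the 171. It was 123 with all 10 gastrocnemius libraries required, 163 with no cortex H3K4me3 at any annotated TSS, and 171 to 184 when 1 library was left out. The 55 promoters with H3K27ac called in more gastrocnemius libraries (691 of 18562 over all promoters) became 47 to 53 when 1 library was left out (556 to 646 over all). The count was 45 without the libraries with a sample number (520 of 18398 over all). With other windows, score limits or a peak over the TSS it was 49 to 71 (640 to 890 over all). Reads with uncalled promoters at 0 called more: 144 with edgeR, 146 with DESeq2 size factors, 149 with DESeq2, 144 without a filter on low counts and 143 with the sample number as covariate, of 169, with 6 called higher in cortex in each of these fits. In the first, 21.7% of all promoters were called higher in gastrocnemius and 28.3% higher in cortex. The cause was not tested. The 60 of 75 promoters with a higher level were 58 to 65 when 1 library was left out (2419 to 2686 over all). They were 45 of 59 with at least 20 reads in every library (2439 of 12494 over all promoters). Without the libraries with a sample number they were 55 of 82 (2360 of 13389 over all). With 1 gene per locus, the counts were 51 of 157 for calls and 53 of 68 for levels. The fits by locus, over the TSS itself, of coding genes alone, without TMM and with TATAAA on either strand (18.1% against 14.6%) were chosen after seeing the data.

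By the file names 4 of the 9 same-numbered pairs of libraries came from 1 mouse, so the replicate number does not mark the mouse and was not taken as a pairing. Deviations from the tissue mean had correlations of -0.08 to 0.05 within same-numbered pairs and of -0.03 to 0.07 within the 9 pairs of 1 mouse, so this measure does not tell shared from different mice. With the replicate number as a block, 132 promoters were called higher in gastrocnemius and 5 lower on reads with uncalled at 0 (3171 and 4344 of 18495 over all promoters), and 53 higher and 4 lower on level (2366 and 2653 of 12951). With the mouse from the file names as a block, 131 were higher and 5 lower on reads (3202 and 4331 over all), and 56 higher and 5 lower on level (2370 and 2622). The level calls lost with the mouse block were Mirlet7b, Mirlet7c-2, Lncppara, Mir6990 and 4930431P22Rik.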
